A study of Mus musculus with 21 samples.

Results

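The genes described here are 10 receptors for growth factors, hormones and cytokines that are known in liver: Egfr, Erbb3, Met, Lifr, Il6st, Il6ra, Fgfr4, Insr, Igf1r and Prlr. They were taken by gene symbol from the 22520 genes of 1 table in FPKM, a unit that scales each gene's fragments to its length and to the library's size, and each symbol had 1 row. The list was drawn up with the lower Egfr and Lifr at 8 months and the CCl4 columns already known, so the values of those comparisons are given as descriptions, with no test. The livers came from mice of 4 genotypes on the background 129SV::FVB/N::C57BL/6. WT mice were Ezh2fl/fl, with the floxed gene intact and no Cre. E1KO mice were Ezh1-/-, a loss in every cell. E2KO mice were Ezh2fl/flAlb-Cre, in which Cre is driven by the albumin promoter and so deletes Ezh2 in hepatocytes. Liver cells in which that promoter has not been active keep Ezh2. DKO mice were Ezh1-/-Ezh2fl/flAlb-Cre. Each genotype was sampled at 2 months of age, at 8 months of age and, after CCl4 injection, at 3 months of age, which makes 12 groups. CCl4 (carbon tetrachloride) is a toxin that hepatocytes convert to a damaging radical, and the labels state neither its dose nor its timing. Each group is 1 column of the table. By their titles the 2-month and CCl4 groups had 3 replicates and the 8-month groups 2, but the labels do not state how these became 1 column, and no error between animals can be given.

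As background, these receptors carry the signals that tell hepatocytes to divide, to use nutrients and to answer injury. Egfr, Erbb3, Met, Fgfr4, Insr and Igf1r belong to the receptor tyrosine kinase class, while Lifr, Il6st, Il6ra and Prlr are cytokine receptors that signal through JAK kinases and STAT factors. Egfr and Met are known for their part in liver regeneration, and the interleukin-6 receptor pair Il6ra and Il6st for the acute phase response. Ezh1 or Ezh2 supplies the methyltransferase of PRC2, which places H3K27me3, a mark found at silent genes.

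Ezh1 was listed at 1.96 to 2.50 FPKM in the WT and E2KO columns and at 0.06 to 0.27 in DKO, and in E1KO it was 0.07 at 2 months, 0.20 with CCl4 but 0.88 in the library labelled E1KO at 8 months. In that library 8 skeletal muscle markers added up to 379 FPKM, while the other 11 columns had 0.95 to 1.75, and the 8-month summaries are also given without E1KO. The 2-month WT column, the baseline of the WT comparisons, stood apart in acute phase genes. Saa2 was 2175 FPKM there and 54.34 to 260.5 in the other 2-month columns, Saa1 was 2517 against 239.9 to 465.8, and Lcn2 was 155.7 against 7.28 to 30.28. At 8 months Saa1 (41.08 to 191.9 FPKM), Hp (1888 to 2678) and Fgl1 (94.52 to 203.0) lay below all 4 2-month columns. The lowest 2-month values were 239.9, 2730 and 207.8. Saa2, Lcn2 and Steap4 overlapped between the ages. The part of this acute phase difference in the Egfr and Lifr values was not tested. At 2 months Ezh2 RNA was 1.11 FPKM in WT, 0.84 in E2KO and 0.74 in DKO. At 8 months the same genotypes had 0.91, 0.79 and 1.27 FPKM, and after CCl4 5.68, 3.92 and 2.51. The library labelled DKO at 8 months was thus above WT in Ezh2, against its label, while its Ezh1 was 0.06 FPKM. Whole liver holds cells that keep Ezh2, and a value per gene does not separate the floxed part, so this is a weak check of the deletion. Column totals ran from 531761 to 674119 FPKM. Of the hepatocyte markers, 8 of 10 were in the table, none at 0 in all columns, and their sum ran between 9524 and 12136 FPKM at 2 months, between 7857 and 13193 at 8 months and between 3980 and 9015 after CCl4. One of them, Cyp2e1, the P450 that activates CCl4, was 151 to 3857 FPKM with CCl4 against 4759 to 5883 at 2 months, and the sum of the other 7 was 4765 to 6252, 4079 to 5727 and 3829 to 5158 FPKM. In the same order of conditions, macrophage markers summed to 63.6 to 107, 46.0 to 80.1 and 187 to 433 FPKM (8 of 9 in the table), stellate cell and myofibroblast markers to 76.0 to 122, 87.6 to 204 and 214 to 298 (9 of 9), and cholangiocyte markers to 47.6 to 93.5, 32.2 to 308 and 323 to 701 (8 of 8). Sinusoidal endothelial markers summed to 26.2 to 40.1, 32.9 to 54.0 and 68.8 to 101 FPKM (8 of 8), and proliferation genes to 6.24 to 9.94, 7.64 to 13.6 and 85.1 to 256 (8 of 8). Neutrophil markers summed to 3.91 to 8.66, 2.92 to 19.8 and 14.6 to 55.7 FPKM (5 of 6), lymphocyte markers to 2.01 to 3.74, 2.14 to 7.03 and 1.20 to 4.26 (8 of 8), and erythroid genes to 67.7 to 115, 44.7 to 107 and 24.8 to 66.9 (5 of 6). No listed marker was at 0 in all 12 columns. In whole liver, fewer cells of a type and less RNA per cell cannot be told apart.

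FPKM is a level per length of gene model, so the receptors can be ordered against each other. Egfr, the receptor for epidermal growth factor and its relatives, was the highest in all 12 columns, from 22.14 to 183 FPKM. Lifr, which binds leukaemia inhibitory factor and pairs with Il6st, was the second highest in all 12, from 15.82 to 133.8 FPKM. Both stood well above the other receptors at 2 months, where the next was Fgfr4 or Insr at 10.67 to 15.63 FPKM. At 2 months the middle of the order was Fgfr4 (median 12.5 FPKM over the 4 genotypes), Insr (11.5), Met (8.78), Il6st (8.51), Erbb3 (6.46) and Il6ra (5.70), and these neighbours overlapped in range. Prlr, the prolactin receptor, was lower at a median of 3.25 FPKM, and Igf1r was the lowest receptor at 0.155. At 2 months Egfr in WT was higher than 95.5% of the 11394 genes that reached 1 FPKM in at least 2 columns, and in DKO at 8 months it was higher than 77.9%. The values are per gene, so soluble and membrane forms of a receptor are not separated.

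The sequence before the starts of Egfr, Lifr and Il6st is shown because these are the receptors that differ most between conditions, Egfr and Lifr downward and Il6st upward. RefSeq's promoter table (GRCm38.p6) matched 8 of the 10 receptors; Erbb3 and Insr had no match. Each window is the 250 bases before an annotated start, on the + strand, with matched motif letters in capitals, and Lifr has 2 annotated starts.
Egfr, chr11:16751953-16752202: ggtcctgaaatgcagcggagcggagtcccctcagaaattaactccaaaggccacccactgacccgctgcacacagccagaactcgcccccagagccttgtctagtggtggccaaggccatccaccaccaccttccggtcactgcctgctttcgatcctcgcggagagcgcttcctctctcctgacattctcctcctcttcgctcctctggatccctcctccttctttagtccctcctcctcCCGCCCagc
Lifr upstream start, chr15:7129322-7129571: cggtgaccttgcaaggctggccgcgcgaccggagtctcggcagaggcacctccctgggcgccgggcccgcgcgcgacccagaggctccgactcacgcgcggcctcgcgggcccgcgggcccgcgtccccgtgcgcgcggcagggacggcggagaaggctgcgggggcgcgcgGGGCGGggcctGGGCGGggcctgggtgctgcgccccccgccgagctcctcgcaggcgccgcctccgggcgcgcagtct
Lifr downstream start, chr15:7140292-7140541: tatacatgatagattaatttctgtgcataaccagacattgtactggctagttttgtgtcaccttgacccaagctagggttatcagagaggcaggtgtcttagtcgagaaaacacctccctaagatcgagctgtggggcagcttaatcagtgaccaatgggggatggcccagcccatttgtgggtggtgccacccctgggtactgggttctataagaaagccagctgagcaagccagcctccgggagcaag
Il6st, chr13:112463820-112464069: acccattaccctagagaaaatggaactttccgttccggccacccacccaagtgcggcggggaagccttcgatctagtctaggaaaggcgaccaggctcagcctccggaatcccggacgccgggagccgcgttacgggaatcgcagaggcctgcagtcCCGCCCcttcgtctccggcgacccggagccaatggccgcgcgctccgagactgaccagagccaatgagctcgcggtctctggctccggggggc
The capitals are all GC boxes (GGGCGG on either strand). The Egfr window had 1, the upstream Lifr window had 2, the Il6st window had 1 and the downstream Lifr window had none, and 32.7% of the 32851 windows in the table held at least 1. The G and C content was 60.8% for Egfr, 82.4% and 50.8% for the 2 Lifr windows and 66% for Il6st. None of the 4 windows held the letters of a STAT site (TTCNNNGAA, in 7.02% of all windows), an AP-1 site (TGANTCA, 6.75%), a C/EBP site (TTGCNNAA, 9.56%), an HNF4 site (CAAAGTCCA, 0.384%) or an HNF1 site (0.371%), searched on both strands. A match is a description of these letters and does not show that a factor binds.

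At 8 months Egfr and Lifr RNA were lower than at 2 months in all 4 genotypes, about 4-fold in WT, and the other 8 receptors overlapped between the ages. Egfr was 183 FPKM in WT, 167.7 in E1KO, 124.1 in E2KO and 122.0 in DKO at 2 months. At 8 months it was 40.28 in WT, 42.40 in the library labelled E1KO, 72.93 in E2KO and 22.14 in the library labelled DKO. The 4 columns at 8 months all lay below the 4 at 2 months, with E2KO the highest and DKO the lowest. The 8-month level was 22.0% of the 2-month level in WT, 25.3% in E1KO, 58.8% in E2KO and 18.2% in DKO. Lifr was 133.8 FPKM in WT, 125.4 in E1KO, 105.2 in E2KO and 89.21 in DKO at 2 months. At 8 months it was 32.11, 35.56, 68.60 and 15.82 FPKM in the same order. Its groups did not overlap either, E2KO was again the highest and DKO the lowest, and the 8-month level was 24.0%, 28.4%, 65.2% and 17.7% of that at 2 months. The ratio of Lifr to Egfr stayed between 0.715 and 0.941 across the 8 columns of both ages.

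**Figure D1:**
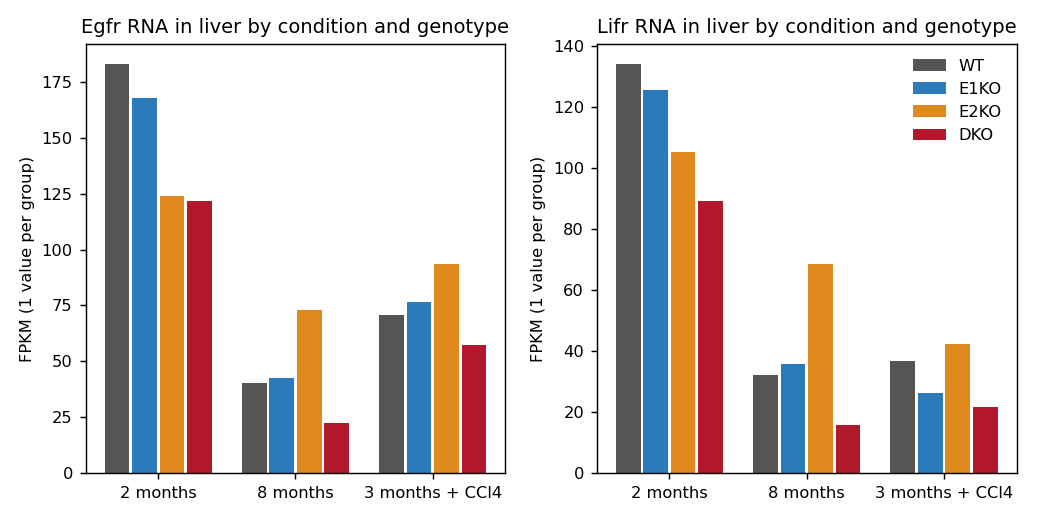
Egfr and Lifr RNA in FPKM (bars from 0, 1 deposited value per group, no error available) by condition and genotype. For both genes the 4 bars at 8 months are below the 4 at 2 months, E2KO is the highest and DKO the lowest at 8 months.

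On the log2(FPKM+1) scale, used for all differences here, the 8-month values minus the 2-month values had a median over genotypes of -2.06 for Egfr (range -2.41 to -0.76) and -1.91 for Lifr (-2.42 to -0.61). Without the E1KO columns the medians were -2.16 and -2.03, and without the WT columns, or without the DKO columns, they were -1.96 and -1.79. Of the 11394 genes, 26 had a lower median difference than Egfr and 33 a lower one than Lifr. These 2 of the 10 receptors were the only ones with all 4 columns at 8 months below all 4 at 2 months, against 5.79% of all tested genes, and the only ones with a median at least 1 lower, against 0.851%. No receptor had its 8-month columns all above the 2-month ones, against 6.31% of tested genes. Without E1KO the same 2 receptors lay below and none above, against 7.96% and 9.30% of tested genes, and 0.825% had a median at least 1 lower. The same 2 lay below without WT or without DKO, against 10.8% and 11.4% of tested genes. Without E2KO, Fgfr4 lay below as well, against 12.8%. The receptors were chosen on this comparison, so the shares are printed for scale and nothing is read from them. The summed hepatocyte markers overlapped between the ages (values above). Relative to that sum the median difference was -2.09 for Egfr and -1.97 for Lifr, and relative to the 7 markers other than Cyp2e1 it was -1.94 and -1.79. Without E1KO the first pair was -2.18 and -2.11 and the second -2.11 and -1.99.

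The other 8 receptors differed less with age, and several differed in direction between genotypes. Il6ra, the interleukin-6 binding subunit, was 7.24 FPKM in WT, 5.76 in E1KO, 5.63 in E2KO and 4.47 in DKO at 2 months. At 8 months it was 2.84 in WT and 2.99 in DKO, but 8.01 in the library labelled E1KO and 9.37 in E2KO. WT and DKO were thus the low columns at 8 months and the single knockouts the high ones. Prlr was 2.73 FPKM in WT, 3.43 in the library labelled E1KO, 6.60 in E2KO and 2.08 in DKO at 8 months, and 2.74 to 4.03 at 2 months. Erbb3, which signals as a partner of other ErbB receptors because its own kinase is weak, was 8.46, 4.48, 8.43 and 4.10 FPKM at 2 months in WT, E1KO, E2KO and DKO and 4.06, 7.42, 6.72 and 3.10 at 8 months. The low Erbb3 columns at 2 months were those without Ezh1, and at 8 months they were WT and DKO. E2KO at 8 months was at least 1 above WT for 3 of the 10 receptors, Il6ra (1.43), Lifr (1.07) and Prlr (1.03), against 1.38% of tested genes in the higher direction. The library labelled E1KO was at least 1 above WT for 1 receptor, Il6ra (1.23), against 0.843%, and DKO for 0, against 2.86%. The receptors were chosen with the 8-month values known, so nothing is read from these shares. Met, the receptor for hepatocyte growth factor, was 6.96 to 10.96 FPKM at 2 months and 8.97 to 11.43 at 8 months. Insr, the insulin receptor, had 10.67 to 12.53 and 10.95 to 13.44 FPKM, Il6st 7.75 to 10.54 and 7.52 to 9.99, and Fgfr4, the receptor for the ileal hormone that represses bile acid synthesis, 10.19 to 15.63 and 9.09 to 12.32. Within each genotype Fgfr4 was lower at 8 months (median -0.25) and Insr higher (0.066) in 4 of 4, though their ranges overlapped between the ages. The share of tested genes with 1 direction in 4 of 4 is not given here, so nothing is read from this. The median of the 10 receptors was -0.0094, beside -0.0064 over all tested genes, and -0.19 beside -0.0075 without E1KO. The median for Il6ra was -0.02 with E1KO and -0.46 without, and that for Erbb3 was -0.30 and -0.31.

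With CCl4, all 4 columns of Lifr, Egfr, Erbb3 and Insr lay below all 4 at 2 months, and those of Il6st lay above. Fgfr4 and Prlr were also lower, and Igf1r higher, than at 2 months in 4 of 4 genotypes, but their ranges overlapped. Igf1r was only 0.11 to 0.71 FPKM over all columns. The share of tested genes with 1 direction in 4 of 4 genotypes is not given here, so nothing is read from these directions. Lifr was 36.61 FPKM in WT, 26.24 in E1KO, 42.39 in E2KO and 21.54 in DKO, which is 27.4%, 20.9%, 40.3% and 24.1% of the 2-month levels. Egfr was 70.90, 76.51, 93.64 and 57.52 FPKM, or 38.7%, 45.6%, 75.5% and 47.2%. Lifr was therefore the further of the pair from its 2-month level in each genotype, and the Lifr to Egfr ratio was 0.343 to 0.516 with CCl4 against 0.731 to 0.848 at 2 months. Erbb3 was 2.87 FPKM in WT, 2.76 in E1KO, 2.27 in E2KO and 3.25 in DKO, all below the lowest 2-month value of 4.10. Insr was 5.65, 6.12, 5.88 and 8.18 FPKM, below the 2-month range of 10.67 to 12.53. For both genes DKO was the highest of the 4 genotypes with CCl4. Il6st, the signal-transducing subunit that Lifr and Il6ra share, was 10.54 FPKM in WT, 8.58 in E1KO, 8.43 in E2KO and 7.75 in DKO at 2 months. With CCl4 it was 18.17, 22.31, 17.64 and 20.12 FPKM, and the groups did not overlap.

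The medians over genotypes were -1.92 for Lifr, -1.10 for Egfr, -0.92 for Erbb3, -0.86 for Insr and 1.13 for Il6st. Without the WT columns Erbb3 was at -0.54, Egfr at -1.07, Insr at -0.79 and Il6st at 1.27. The same 5 receptors then did not overlap, against 25.9% of tested genes below and 33.5% above. Fgfr4 also lay below without E1KO (24.7% and 32.8% of tested genes), and Met above without E2KO (25.6% and 32.7%). Without DKO, Il6ra, Fgfr4 and Prlr also lay below and Igf1r above (29.2% and 36.6%). All 4 CCl4 columns lay below all 4 at 2 months for 4 of the 10 receptors, against 22.8% of tested genes, and above for 1, against 29.6%. A median of at least 1 lower was seen for 2 receptors, against 4.81%, and of at least 1 higher for 1, against 8.64%. The receptors were chosen with this comparison known, and nothing is read from these shares. The median of the 10 receptors was -0.40, beside 0.060 over all tested genes, and the 9 that passed the filter on low values had a median of -0.52. The 2-month columns carry no treatment label and are younger, so CCl4 and the difference in age cannot be told apart. Hepatocyte markers summed to 3980 to 4651 FPKM with CCl4 in WT, E1KO and E2KO, below their 2-month range, and to 9015 in DKO, and macrophage, stellate and cholangiocyte markers were higher. Relative to the sum with Cyp2e1 the median Egfr difference was 0.11 and that of Lifr -0.70. The genotypes differed in sign for Egfr, at -0.18 in WT, 0.40 in E1KO, 0.98 in E2KO and -1.01 in DKO. Lifr ranged from -1.97 to 0.07. Cyp2e1 itself was 464, 151, 386 and 3857 FPKM in the same order. Relative to the 7 markers without Cyp2e1 the medians were -0.79 for Egfr (range -1.20 to 0.15) and -1.60 for Lifr (-2.16 to -0.76). The part of these markers in the other receptors' values was not tested.

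**Figure D2:**
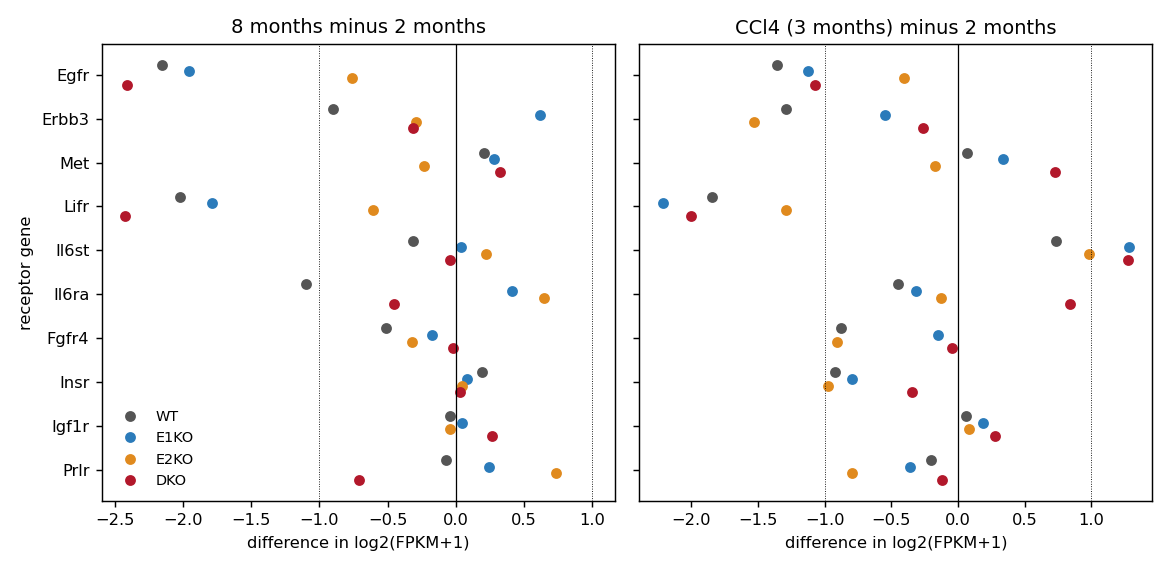
Differences in log2(FPKM+1) of each receptor from the 2-month column of the same genotype, at 8 months (left) and with CCl4 at 3 months (right), 1 point per genotype, with dotted lines at a difference of 1. At 8 months only Egfr and Lifr are below 0 by a median of at least 1, and with CCl4 Il6st is above 0 in all 4 genotypes.

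The ranges of the remaining receptors overlapped between CCl4 and 2 months, with medians of -0.52 for Fgfr4, -0.28 for Prlr, -0.22 for Il6ra, 0.20 for Met and 0.14 for Igf1r. Il6ra was 5.03, 4.44 and 5.06 FPKM in WT, E1KO and E2KO with CCl4, and 8.78 in DKO, where it was 196% of the 2-month level. Met was 10.25, 10.12 and 9.61 FPKM in those 3 genotypes and 12.20 in DKO. Fgfr4 was 6.83 FPKM in WT and 7.87 in E2KO but 10.29 in E1KO and 9.85 in DKO, and Prlr was 2.41, 1.91, 1.64 and 3.62 FPKM in WT, E1KO, E2KO and DKO. DKO was the highest genotype with CCl4 for Erbb3, Met, Il6ra, Insr, Igf1r and Prlr and the lowest for Egfr and Lifr. The shares of all tested genes with DKO in these positions with CCl4 are not given here, so nothing is read from them.

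The balance of the cytokine receptor subunits therefore differed between conditions. Lifr and Il6ra each need Il6st to signal. Lifr RNA was between 11.5 and 14.6 times that of Il6st at 2 months, between 2.10 and 6.87 times at 8 months and between 1.07 and 2.40 times after CCl4, and the 3 ranges did not meet except where DKO at 8 months lay within the CCl4 range. Il6ra RNA was 0.577 to 0.687 of that of Il6st at 2 months and 0.199 to 0.436 with CCl4. At 8 months the ratio was 0.342 in WT and 0.398 in DKO but 0.904 in the library labelled E1KO and 0.938 in E2KO. These are ratios of RNA levels per length and say nothing of the receptor proteins at the cell surface.

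**Figure D3:**
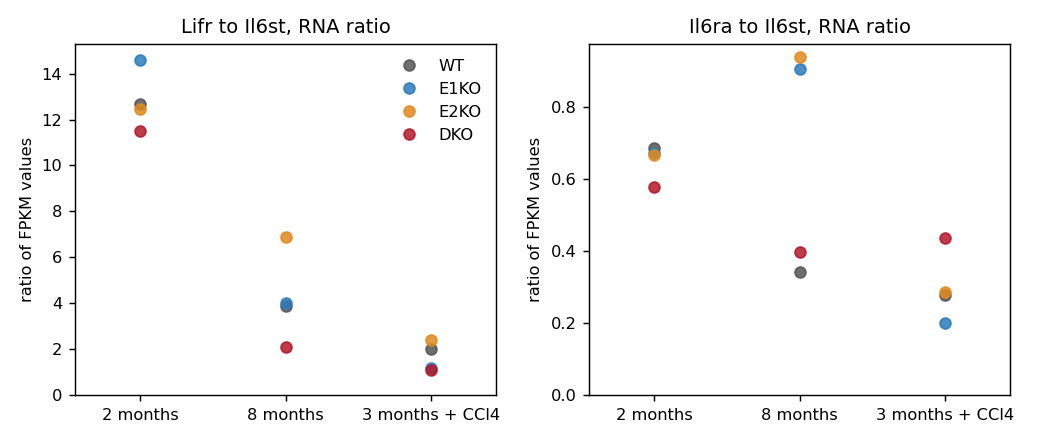
Ratio of Lifr to Il6st RNA (left) and of Il6ra to Il6st RNA (right), from FPKM values, 1 point per group. Lifr exceeds Il6st by 11.5 to 14.6 times at 2 months and by 1.07 to 2.40 times with CCl4, and the Il6ra ratio separates WT and DKO from the single knockouts at 8 months.

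Whether loss of Ezh1, Ezh2 or both alters the receptors was tested by an additive limma fit over the 8 columns at 2 months and with CCl4, leaving out the 8-month columns. The 2-month and CCl4 columns were also known when the genes were chosen, for the differences between conditions, so the test is not independent of that choice. No receptor passed at an adjusted p under 0.05 over all tested genes in any of the 3 genotypes. Of the 10 receptors, 9 were tested, since Igf1r did not reach 1 FPKM. In DKO, Lifr had the largest difference from WT at -0.66 (SE 0.23, limma adjusted p = 0.314), and it was 1 of 9 receptors under 0.05 before adjustment. Lifr in DKO was 66.7% of WT at 2 months, 49.3% at 8 months and 58.8% after CCl4, and DKO was the lowest genotype in each condition. Egfr differed by -0.44 (SE 0.24, limma adjusted p = 0.439) and was also the lowest in DKO in all 3 conditions, a position that 8.63% of tested genes held. Prlr differed by 0.40 (SE 0.18, limma adjusted p = 0.373), with DKO at 138% of WT at 2 months and 150% with CCl4 but 76.2% at 8 months. The other 6 lay between -0.38 and 0.18. In this fit 37 of 11394 genes passed for DKO (0.325%), with 1631 at an unadjusted p under 0.05, so receptors without a call cannot be taken as equal to WT. Without the 2-month WT column, which leaves 1 WT column assumed to vary like the others, no receptor passed either. Lifr then differed by -0.66 and Egfr by -0.19 in DKO (limma adjusted p = 0.645 and 0.881), and 5 genes passed.

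E1KO and E2KO also gave no receptor call. Erbb3 had the largest E1KO difference (-0.41, SE 0.32, limma adjusted p = 0.839), and the 9 receptors lay between -0.41 and 0.16. In E2KO they lay between -0.17 and 0.19, with limma adjusted p = 1 for each. limma called 0% of all tested genes in E1KO and in E2KO, with 706 and 88 at an unadjusted p under 0.05, and 5 and 4 genes passed without the 2-month WT column. With all 12 columns in the fit, again no receptor passed in any genotype, and Lifr in DKO stood at -0.77 (SE 0.29, limma adjusted p = 0.208).

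**Figure D4:**
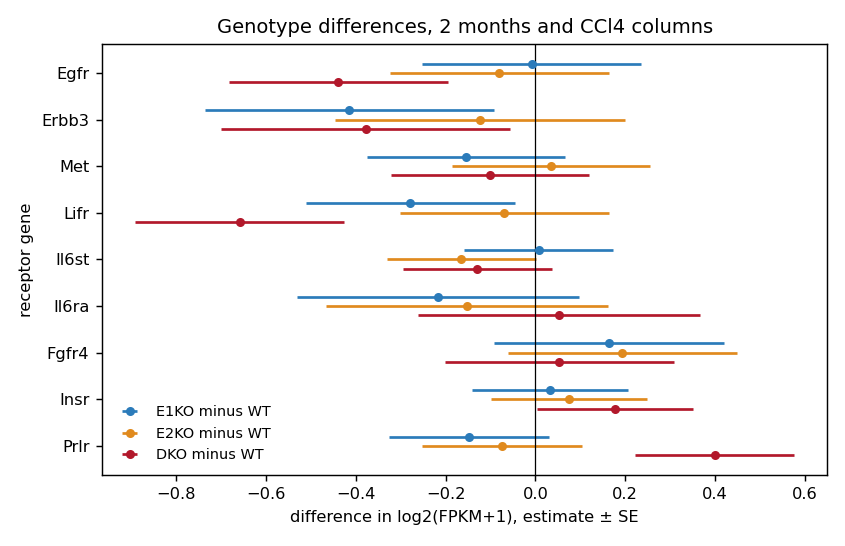
Estimated difference from WT in log2(FPKM+1) for the 9 tested receptors (points, with SE bars) in E1KO, E2KO and DKO, from the limma fit over the 8 columns at 2 months and with CCl4. DKO has the lowest estimates for Lifr (-0.66) and Egfr (-0.44), and none of the differences passed the test.

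Igf1r, the receptor for insulin-like growth factors, which hepatocytes are known to express little of, was highest in DKO in each condition. At 2 months it was 0.14 FPKM in WT, 0.17 in E1KO, 0.14 in E2KO and 0.41 in DKO. At 8 months it was 0.11, 0.21, 0.11 and 0.70, and with CCl4 0.19, 0.33, 0.21 and 0.71 FPKM. The 3 DKO columns lay above all 9 others, as they did for 2.04% of the 20115 genes above 0 in any column. The DKO level was 293% of WT at 2 months, 636% at 8 months and 374% after CCl4, and that of E2KO was 100%, 100% and 111%. Since log2(FPKM+1) compresses values this low, the fitted difference was 0.41 (SE 0.060) without the filter on low values, with limma adjusted p = 0.166 over 8 columns. It passed when all 12 columns were fitted without the filter (0.48, SE 0.057, limma adjusted p = 0.0168), a fit added after the values were seen in which 2.07% of genes passed. Marker sums of 5 other cell types were also higher in DKO than in WT in each condition. At 2 months, 8 months and with CCl4, stellate cell and myofibroblast markers were 122 against 76.0, 204 against 96.3 and 298 against 214 FPKM. Cholangiocyte markers were 93.5 against 65.2, 308 against 47.5 and 701 against 410 FPKM, and neutrophil markers 8.66 against 7.20, 19.8 against 2.92 and 55.7 against 14.6. Macrophage markers were 94.1 against 87.8, 80.1 against 46.0 and 332 against 187 FPKM, and lymphocyte markers 3.74 against 2.01, 7.03 against 2.73 and 4.26 against 1.20. Sinusoidal endothelial markers were 40.1 in DKO against 30.1 in WT, 34.3 against 54.0 and 70.1 against 70.6 FPKM in the same order. Erythroid genes were lower in DKO in each condition, at 67.7 against 93.7, 45.5 against 107 and 24.8 against 66.9 FPKM. The part of these cell types in the Igf1r values was not tested.

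The other genes of these pathways were taken from 6 lists of 156 genes, of which 127 were tested. With CCl4, 34 rose and 32 fell in the additive limma fit over 12 columns, where 33.4% of all tested genes rose and 24.5% fell. Of 9 tested ligands 3 rose and 2 fell. Hgf, the ligand of Met, was between 0.50 and 0.64 FPKM at 2 months, between 3.60 and 4.67 after CCl4, and rose by 1.71 (SE 0.10, limma adjusted p = 1.8e-05). Nrg4 (0.62) and Btc (0.42) of the EGF family also rose, while Igf1, the ligand of Igf1r that hepatocytes secrete, fell by 0.82 and Cntf by 0.40. Of 9 genes of ligand activation and shedding 3 rose and 3 fell. Plau, the urokinase protease, rose by 1.71, and the sheddase gene Adam10 by 0.82. Hgfac and Hpn, proteases that cut the Hgf precursor, fell by 0.91 each, from 91.24 to 104.5 FPKM to 35.43 to 74.91 for Hgfac.

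Of 18 other receptors 6 rose and 3 fell with CCl4. Axl, a receptor of phagocytes and stromal cells, rose by 1.42, Pdgfrb, a receptor of stellate cells, by 0.87, and Osmr, the partner of Il6st in the oncostatin M receptor, by 0.73, from 0.36 to 0.66 FPKM to 1.20 to 2.48. Ghr, the growth hormone receptor, fell by 1.20, from 232.9 to 346 FPKM to 113.7 to 143.1, and the interleukin-1 co-receptor Il1rap by 1.01. Of 28 adaptors and kinases 7 rose and 6 fell, led by the ERK kinase gene Mapk3 (0.95), Akt1 (0.63), Ptpn11 (0.61) and the docking protein gene Frs3 (-0.86). Of 31 feedback inhibitors 5 rose and 11 fell, with Spred1 (1.26) and the ERK phosphatase gene Dusp6 (0.85) higher and Trib3 (-1.15) and the adaptor Grb7 (-1.03) lower. Of 32 target genes of the receptors 10 rose and 7 fell. The acute phase gene Lcn2 rose by 3.66, and by 4.67 without the 2-month WT column. In WT it was 155.7 FPKM at 2 months and 193.7 with CCl4, against 7.28 and 451.9 in E2KO. Next came the cyclin Ccnd1, which rose by 2.33, and Fgl1 by 1.70, while Pck1, the gluconeogenic enzyme that insulin represses, fell by 1.87. Saa1 (1.64), Saa2 (2.74) and Steap4 (1.17) did not pass with all 12 columns (limma adjusted p = 0.101, 0.0558 and 0.0746). They rose by 2.38, 3.91 and 1.85 without the 2-month WT column (limma adjusted p = 0.0233, 0.00706 and 0.000658), while the call of Btc was lost (limma adjusted p = 0.0761). Cntf, Osmr, Saa1, Saa2 and Steap4 were named after their values were seen. Apart from Saa1, Saa2 and Steap4, the named genes passed in limma with 12 columns at an adjusted p of 0.0474 or lower. The macrophage, stellate and proliferation markers that were higher in the same columns are given above, and their part was not tested.

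**Figure D5:**
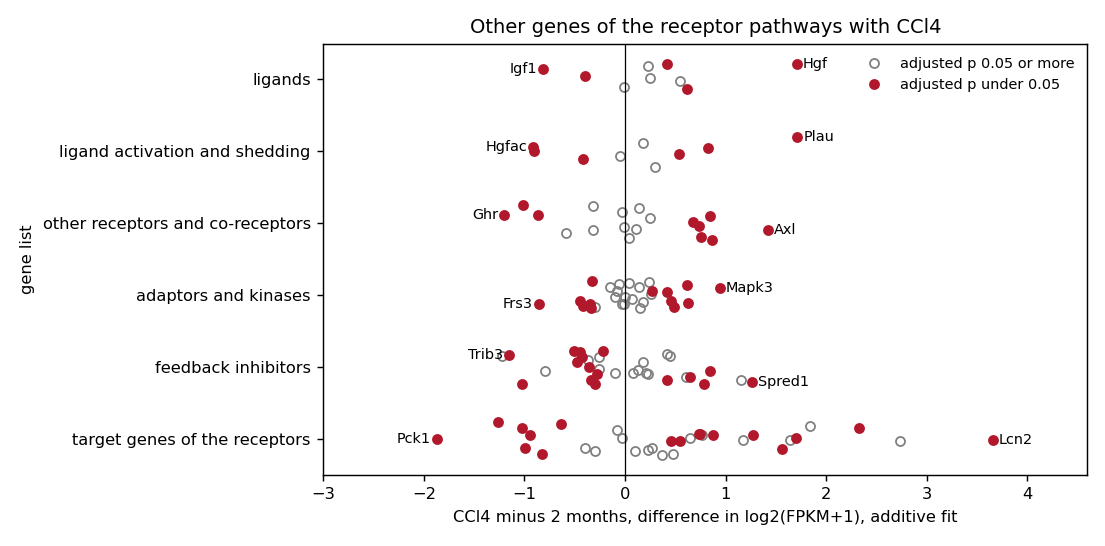
Difference between CCl4 and 2 months in log2(FPKM+1) for the 127 tested genes of the 6 pathway lists, from the additive limma fit over 12 columns, 1 point per gene, filled where adjusted p is under 0.05 and with the highest and lowest passing gene of each list named. Filled points lie on both sides of 0 in every list, with Hgf and Plau at 1.71.

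At 8 months 3 of the 127 passed, beside 2.7% of all tested genes that rose and 1.59% that fell. Among them the cytokine gene Ctf1 rose by 0.55 (limma adjusted p = 0.0484), from between 2.03 and 2.77 FPKM at 2 months to between 3.04 and 4.43 at 8 months. None of the 3 passed without the library labelled E1KO at 8 months, nor without the 2-month WT column, nor when all columns of WT, E1KO, E2KO or DKO were left out in turn. None of the 127 passed in DKO, E1KO or E2KO against WT, with 20, 9 and 2 at an unadjusted limma p under 0.05. The nearest was Lepr, the leptin receptor, in DKO (1.51, SE 0.17, limma adjusted p = 0.0515), at 2.47 FPKM in DKO against 0.37 in WT at 2 months and 3.90 against 0.54 with CCl4, but 0.41 against 0.34 at 8 months.

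Over the 12 columns, Egfr and Lifr had a Pearson correlation of 0.88 in log2(FPKM+1). Lifr ranked 24 among 11393 genes by likeness to Egfr, and Egfr ranked 37 by likeness to Lifr. The 5 genes most like Egfr were Pdia5 (0.965), the complement gene C8b (0.962), Pabpc1 (0.955), Eif3g (0.942) and Tpp2 (0.941). Those most like Lifr were Ddx47 (0.947), the P450 gene Cyp2c70 (0.947), AI661453 (0.946), Card6 (0.936) and Diexf (0.929). Of these, C8b and Cyp2c70 spanned a wide range of levels, from 48.51 to 299.3 FPKM and from 160.4 to 904.2 FPKM, with medians of -1.48 and -1.40 at 8 months against 2 months. The columns share 3 conditions and the scaling within each column, so these correlations describe the pattern and carry no test. Egfr and Lifr were also chosen with their lower 8-month values known, so their likeness to each other follows in part from that choice.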

How the data were processed

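RNA-seq was made from mouse liver, 12 groups with 1 column each, starting with total RNA (1 ug) per the labels' protocols. The authors deposited FPKM values to 2 decimals. CASAVA, TopHat and Cufflinks are among the tools in the submitters' processing notes, on mouse assembly mm9, with versions and roles not given in the sources used here. Numbers of reads could not be recovered, since every hundredth from 0.01 to 0.20 occurs, so the depth is unknown. The 9 ChIP-seq samples are not analysed here. Members and lists were chosen with earlier results of these data known.

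Testing covered the 11394 genes that reached 1 FPKM in 2 or more columns, on log2(FPKM+1) with limma 3.58.1 in R 4.3.3 (additive genotype and condition terms, eBayes with trend, two-sided, Benjamini-Hochberg, threshold 0.05). Genotypes were compared over 8 columns (3 residual degrees of freedom) and conditions over 12 (6 residual degrees of freedom). With 1 column per group the spread is the departure from the additive fit, which holds genotype-by-condition differences. The fit was run on simulated data with independent noise and additive shifts only. That simulation held no genotype-by-condition differences, so it cannot show how the fit performs where they are present. All members are named, with up to 4 passing genes per pathway list and comparison, those of the largest change, and the 5 genes most like Egfr and Lifr. Cntf, Osmr, Saa1, Saa2, Steap4, Lepr, the medians relative to hepatocyte markers and the fits without the 2-month WT column were added after the values were seen. Some pathway genes that passed at 8 months are not reported here. Alternatives covered the pseudocount, filter, scaling, eBayes trend and columns left out.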

Additional observations from a re-analysis of the deposited data

Results flagged for a closer look

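Some receptors moved in opposite directions between 2 and 8 months in 2 genotypes, by at least 0.5 each on the log2(FPKM+1) scale, a limit set after the values were seen. Each group is 1 column, so the difference was not tested. For Il6ra, E2KO was higher and WT lower at 8 months, and the changes differed by 1.75. For Erbb3, the library labelled E1KO was higher and WT lower, with a difference of 1.52 that rests on the library with skeletal muscle RNA. For Prlr, E2KO was higher and DKO lower, with a difference of 1.44.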

How the results depend on the processing

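The number of genes called for DKO against WT was 37, and it was 299 with all 12 columns, 205 without the library labelled E1KO at 8 months, 2 with no filter on low values, 11 with a filter at 5 FPKM, 57 with upper-quartile scaling and 5 without the 2-month WT column. For E1KO it was 0, and 2 and 4 with those 12 and 11 columns and 5 without the 2-month WT column, and for E2KO it was 0 and then 4. No tested receptor gained or lost a call under any of these settings, and the low-level Igf1r passed with all 12 columns and no filter. Pathway genes called with CCl4 numbered 66, and 42 with a filter at 5 FPKM. The 3 called at 8 months became 1 with no filter and 0 when the WT, E1KO, E2KO or DKO columns, the 8-month library labelled E1KO or the 2-month WT column were left out, with fewer samples in the fit; otherwise the cause was not tested. The Egfr and Lifr medians at 8 months moved by less than the spread over genotypes under each alternative, the lowest at -2.16 and -2.03. With CCl4 the Egfr median of -1.10 became 0.11 relative to the summed hepatocyte markers with Cyp2e1, from -1.01 in DKO to 0.98 in E2KO. Relative to the markers without Cyp2e1 it was -0.79. No paired analysis was possible because each group has 1 column, so replicate numbers pair nothing, and the fit over conditions has genotype as a term. The depth is unknown, so values under 1 FPKM are the least certain.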
